A study of Mus musculus with 2 samples.

Results

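The factors that commit progenitors to the T lineage and steer DP thymocytes between the CD4 and CD8 fates were examined in a Runx1 ChIP-seq experiment, through the Runx1 peaks around the genes Tcf7, Lef1, Gata3, Bcl11b, Zbtb7b, Tox, Gfi1 and Myb. The genes were taken by name, with earlier results of these data known, and every Runx1 peak whose centre lay in the body of 1 of these genes or within 100 kb of either end was taken, which gave 16 of the 3531 peaks of the Runx1 list. The data come from CD4+ CD8+ double-positive (DP) thymocytes sorted from the thymus of C57BL/6 mice. Chromatin of 10000000 cells was immunoprecipitated with 10 μg of an anti-Runx1 antibody. The 2 libraries, 1 of Runx1 ChIP and 1 of input without antibody, were amplified by 15 PCR cycles and read on SOLiD sequencers. The mice were 4 to 6 weeks old. The number of mice pooled and any genotype beyond the strain are not given for these libraries in the sources used here, and the labels and the methods of the study name different catalogue numbers for the antibody. With 1 library per condition there is no spread between replicates, so the values below are descriptions of these libraries and no test was made. The lists hold peak positions with a score and no read counts or expression, so the depth is unknown, a gene without a peak cannot be read as a gene without Runx1, and the DP label could not be checked against levels of marker genes.

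Runx1 belongs to the RUNX family, whose members bind DNA together with the partner Cbfb at a short core, TGTGGT, and act as activators or repressors at many stages of T-cell development. The factors studied here form the network in which Runx1 works. Tcf7 encodes TCF1, an HMG-box protein that is induced by Notch signaling and starts the T-lineage program, and Lef1 is its close relative. Gata3 is a zinc finger factor needed by early T-cell precursors and again for the CD4 fate, and Bcl11b closes the access to other lineages at commitment. Zbtb7b encodes ThPOK, which drives the CD4 helper fate and is repressed through a silencer by RUNX complexes in CD8-lineage cells, while the HMG-box protein Tox is needed for CD4 lineage development. Gfi1 is a transcriptional repressor, and Myb encodes c-Myb, which is required at several steps up to the DP stage.

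The sequences of 7 peaks are shown: the highest peak of Tcf7, Myb and Lef1, the other peaks with the RUNX core and, for contrast, 1 of the Bcl11b peaks, which have no core. Sequences are from the plus strand of NCBIM37 (mm9), 5′ to 3′, in lower case, with TGTGGT and the variant TGCGGT of either strand in capitals (on the plus strand, a site of the minus strand reads ACCACA or ACCGCA). Distances are from the 5′ end of the gene to the centre of the peak.
Tcf7, 31070 bp upstream, chr11:52127658-52127844, score 120: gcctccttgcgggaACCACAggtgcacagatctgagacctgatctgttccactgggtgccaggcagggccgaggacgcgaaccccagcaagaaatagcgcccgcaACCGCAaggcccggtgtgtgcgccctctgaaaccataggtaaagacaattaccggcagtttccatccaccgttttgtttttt
Myb, 68300 bp downstream, chr10:20812397-20812583, score 56: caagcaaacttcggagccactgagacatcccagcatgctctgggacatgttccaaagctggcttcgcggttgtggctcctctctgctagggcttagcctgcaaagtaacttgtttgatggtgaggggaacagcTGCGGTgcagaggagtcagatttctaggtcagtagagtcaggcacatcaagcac
Lef1, 98229 bp downstream, chr3:130911525-130911711, score 47: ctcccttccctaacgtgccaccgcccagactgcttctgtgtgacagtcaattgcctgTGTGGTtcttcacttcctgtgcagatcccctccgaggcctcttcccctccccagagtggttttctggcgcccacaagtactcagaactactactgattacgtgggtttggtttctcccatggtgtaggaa
Lef1, 47155 bp downstream, chr3:130860451-130860637, score 21: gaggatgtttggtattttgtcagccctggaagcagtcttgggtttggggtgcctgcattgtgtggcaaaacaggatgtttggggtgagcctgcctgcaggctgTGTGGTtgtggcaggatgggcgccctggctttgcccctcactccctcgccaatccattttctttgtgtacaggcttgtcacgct
Gfi1, 13164 bp upstream, chr5:108168127-108168313, score 23: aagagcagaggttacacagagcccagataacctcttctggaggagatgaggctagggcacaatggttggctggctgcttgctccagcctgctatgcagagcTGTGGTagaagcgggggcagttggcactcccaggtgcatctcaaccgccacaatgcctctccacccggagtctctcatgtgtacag
Myb, 91363 bp upstream, chr10:20972060-20972246, score 21: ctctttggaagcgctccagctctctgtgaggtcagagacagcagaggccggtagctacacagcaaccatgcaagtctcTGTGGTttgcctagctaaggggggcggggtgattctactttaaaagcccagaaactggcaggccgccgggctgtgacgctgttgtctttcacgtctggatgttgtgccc
Bcl11b, 75459 bp downstream, chr12:109166260-109166446, score 21: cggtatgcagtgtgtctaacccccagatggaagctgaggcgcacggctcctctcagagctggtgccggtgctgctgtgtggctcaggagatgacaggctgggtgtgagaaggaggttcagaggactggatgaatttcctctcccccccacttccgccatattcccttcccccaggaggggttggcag

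Runx1 peaks were found at 6 of the 8 genes. Lef1 had 5 peaks, Gfi1 and Myb had 3 each, Tcf7 and Bcl11b had 2 each and Zbtb7b had 1, whereas the windows of Gata3 and Tox held none. Of the 22368 genes compared (the protein-coding genes of the annotation and Gfi1, which the annotation lists as a processed transcript), 38.5% had at least 1 peak in a window built the same way, with a median of 0 peaks per gene. The median was 2 among the 8 factors, whose bodies had a median length of 34.5 kb against 15.4 kb over all genes. Per unit of sequence, the windows of the factors held 7.15 peaks per Mb over 2.24 Mb, and chromosomes 1 to 19, X and Y held 1.33 per Mb. Without Lef1 the value was 5.72 per Mb. None of the 740 input peaks had its centre in the windows of these factors, and the nearest lay 282336 bp from the body of Lef1. Input peaks were sparse, at 0.278 per Mb over the chromosomes, and 901 of the 22368 genes had one in such a window. The values were not adjusted for gene density or gene length.

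**Figure D1:**
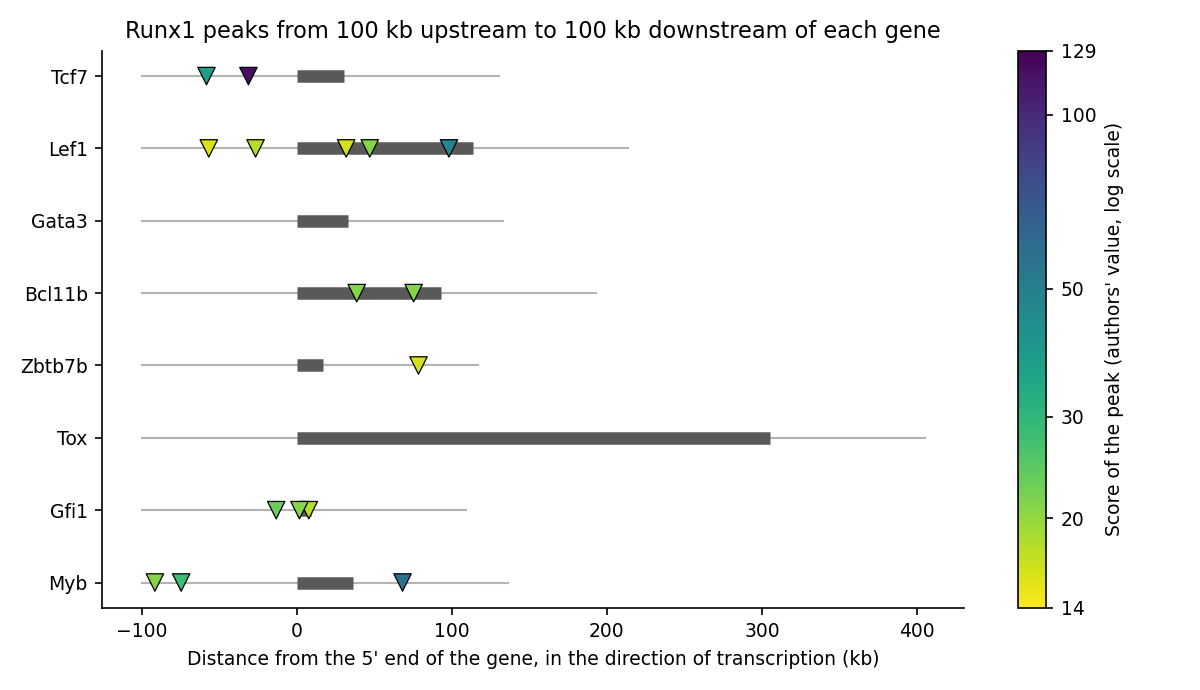
Map of the windows of the 8 genes, with the distance from the 5′ end of the gene in the direction of transcription on the x axis (kb), the gene body as a thick bar, the flanks of 100 kb as thin lines and each Runx1 peak as a triangle coloured by its score on a log scale. The peak of Tcf7 with a score of 120 lies 31070 bp upstream of the gene, Bcl11b carries its peaks inside the gene, and Gata3 and Tox have no peak.

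Apart from 1 peak of Gfi1, the peaks of these factors lay more than 5 kb from every TSS of the factor they were assigned to. Of the 16 peaks, 7 were upstream of the gene, 6 in introns, 1 in an exon and 2 downstream of the gene, and 13 lay farther than 20 kb from every annotated TSS of the gene. A peak within 5 kb of a TSS was found at Gfi1 alone, 1 of the 8 genes, where 5.77% of all genes had one. A peak within the gene body was found at 3 of the 8 genes, Lef1, Bcl11b and Gfi1, against 6.5% of all genes. Measured to the nearest protein-coding TSS of any gene, the median distance was 34817 bp for the 16 peaks and 15688 bp for the 3531 peaks of the list, and 12.5% of the former and 32.4% of the latter lay within 5 kb. The 16 peaks were taken by windows around 8 genes and the 3531 were not, so these distances also depend on the window rule and are not a like comparison. For 6 of the 16 peaks the nearest protein-coding TSS belonged to another gene, so their assignment rests on the window alone.

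**Figure D2:**
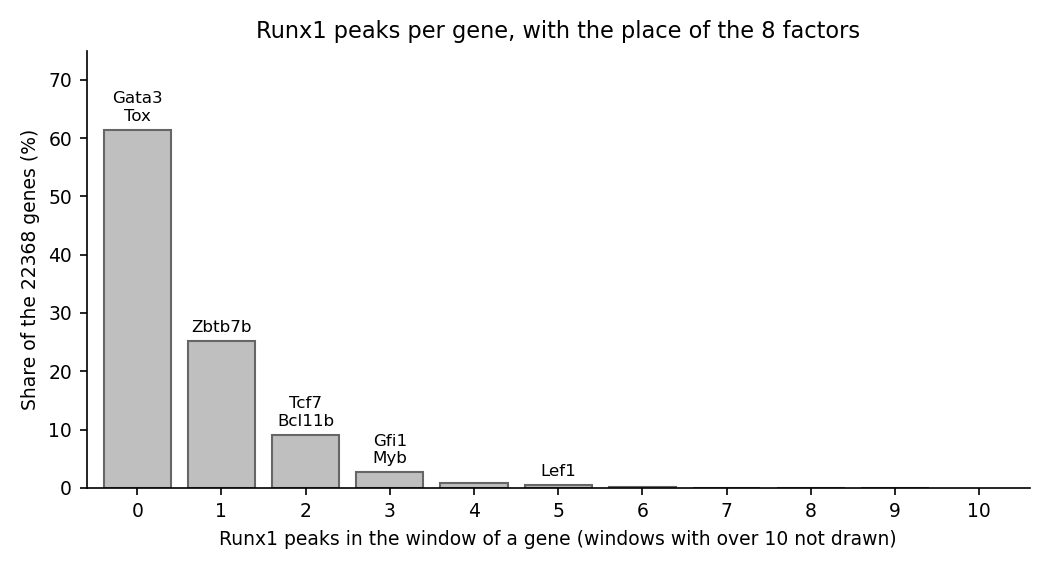
Number of Runx1 peaks in the window of a gene (x axis) and the share of the 22368 genes with that number (y axis, %), with the names of the 8 factors above the bar they belong to. Lef1 stands at 5 peaks, a number reached or passed by 0.644% of the genes, Gata3 and Tox stand with the 61.5% of genes at 0, and the 1 gene with 20 peaks is not drawn.

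Tcf7 (chromosome 11, 52065873 to 52096681, minus strand) had 1 of the highest peaks of the experiment. Its peak with a score of 120 was 31070 bp upstream of the gene, between Tcf7 and Vdac1, and only 2 of the 3531 peaks had a higher score. The nearest protein-coding TSS to this peak was that of Tcf7. A RUNX core lay on the minus strand at 52127672 to 52127677, 76.5 bp from the peak centre, and the variant TGCGGT lay at 52127763 to 52127768, 14.5 bp from it. An E-box, CAGGTG, the core that E proteins bind, started inside the RUNX core and ended at 52127681. The second Tcf7 peak (chr11:52154686-52154872) had a score of 37, was 58098 bp upstream and had neither form of the core; it was closer to Vdac1, whose TSS lay 19583 bp away. No peak was found in the body of Tcf7 or within 5 kb of its annotated TSSs.

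Lef1 (chromosome 3, 130813389 to 130927274, plus strand) had the most peaks. Only 41 of the 22368 genes had more. Its peaks spread over 155 kb, at 56602 and 26467 bp upstream of the gene and at 31959, 47155 and 98229 bp downstream of its 5′ end, the last 3 in introns. The scores were 16 and 18 upstream and 16, 21 and 47 in the introns, in the same order. The strongest lay in intron 11, the last of the longest transcript, with TGTGGT on the plus strand at 130911582 to 130911587. It was nearer to a TSS of Hadh, at 63324 bp, than to any of Lef1, at 95894 bp or more. The peak at 47155 bp, in intron 3, also had the core, at 130860554 to 130860559, and the other 3 peaks had none. Those 3 were also the lowest of the locus, with scores at or below the median of 18 over the list.

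Gfi1 (chromosome 5, 108145674 to 108155056, minus strand) was the factor with a peak at its promoter. This peak (chr5:108153138-108153324) had a score of 21, and its centre was 132 bp downstream of an annotated TSS and 1825 bp from the most distal one, in an annotated exon and, by the longest transcript, in intron 1. It held no TGTGGT within 100 bp of the centre. A peak in intron 6 (chr5:108147096-108147282), 7867 bp from the 5′ end, had a score of 18 and no core either. The third, 13164 bp upstream with a score of 23, had TGTGGT at 108168228 to 108168233, 10.5 bp from its centre. The 3 peaks thus spanned 21.0 kb around a gene of 9.38 kb, with scores from 18 to 23.

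Myb (chromosome 10, 20844736 to 20880790, minus strand) carried its peaks outside the gene. The strongest, with a score of 56, was 68300 bp from the 5′ end and 32246 bp beyond the 3′ end, between Myb and Ahi1, and 61 peaks of the list had a higher score. Its nearest protein-coding TSS was that of Ahi1, at 51864 bp. It held no TGTGGT, but had TGCGGT at 20812530 to 20812535, which overlaps an E-box of the form CAGCTG starting at 20812526. Upstream, a peak with a score of 28 lay at 74442 bp (chr10:20955139-20955325) and one with a score of 21 at 91363 bp, and both were nearer to a TSS of Hbs1l, at 60553 and 43632 bp, than to that of Myb, so that all 3 peaks were nearer to another gene. The peak at 91363 bp was the closest of all to the limit of the windows and had TGTGGT at 20972138 to 20972143, 12.5 bp from its centre.

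Bcl11b (chromosome 12, 109148613 to 109241812, minus strand) had a pair of peaks with the same score, 21, in intron 3, the last intron, at 38751 bp (chr12:109202968-109203154) and 75459 bp from the 5′ end of the gene. Neither had TGTGGT or TGCGGT. No other protein-coding gene lay in the window of Bcl11b.

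Zbtb7b (chromosome 3, 89181566 to 89198698, minus strand) had no peak in its body. The 1 peak of its window (chr3:89120564-89120750) was 60909 bp beyond the 3′ end, in a coding exon of Efna3, which encodes an ephrin ligand, and 4896 bp from the nearest Efna3 TSS. It had no core and a score of 16, a value that 1508 peaks of the list have and 2007 exceed. The window of Zbtb7b was also the richest in genes, with 12 other protein-coding genes.

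Gata3 (chromosome 2, 9778705 to 9811661, minus strand) and Tox (chromosome 4, 6613500 to 6918704, minus strand) had no peak in their windows. For Gata3 the nearest peak was 190562 bp upstream of the gene (chr2:10002130-10002316), with a score of 16 and no core, and its centre lay 3 bp from a TSS of Kin. Over all genes the median distance from gene body to nearest peak was 163445 bp. For Tox the nearest peak was 1426336 bp beyond the 3′ end (chr4:5187071-5187257, score 40, no core), and 4.42% of the 22368 genes were as far from a peak or farther. The window of Tox was the longest, 505 kb, and none of its bases nor of those of the other windows were unknown (N) in the assembly. Of the peaks beyond the limit of 100 kb, the nearest to Zbtb7b was 126232 bp beyond its 3′ end (score 18), 2545 bp from a TSS of Krtcap2. That of Lef1 was 163003 bp upstream (chr3:130650293-130650479, score 35, with TGTGGT), and its nearest protein-coding TSS was that of Lef1.

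The scores, a value per peak whose meaning the files do not name and which was used here only to rank peaks within the list, ran from 16 to 120 at the factors, with a median of 21, and from 14 to 129 in the whole list, with a median of 18. Of the 16 peaks, 11 (68.8%) were above that median, as were 38.7% of all peaks. In the upper quartile of the list (scores of 23 or more) were 6 of them, or 37.5%, against 29.0% of all peaks, since many peaks are tied. Those 6 belonged to Tcf7, Lef1, Gfi1 and Myb. None of the 16 overlapped an input peak. Such overlap was rare in the list, at 35 of the 3531 peaks, so its absence does not set the 16 apart. The 32 bases at the centre of each of the 16 occurred once in the assembly, which was not counted for the other peaks.

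**Figure D3:**
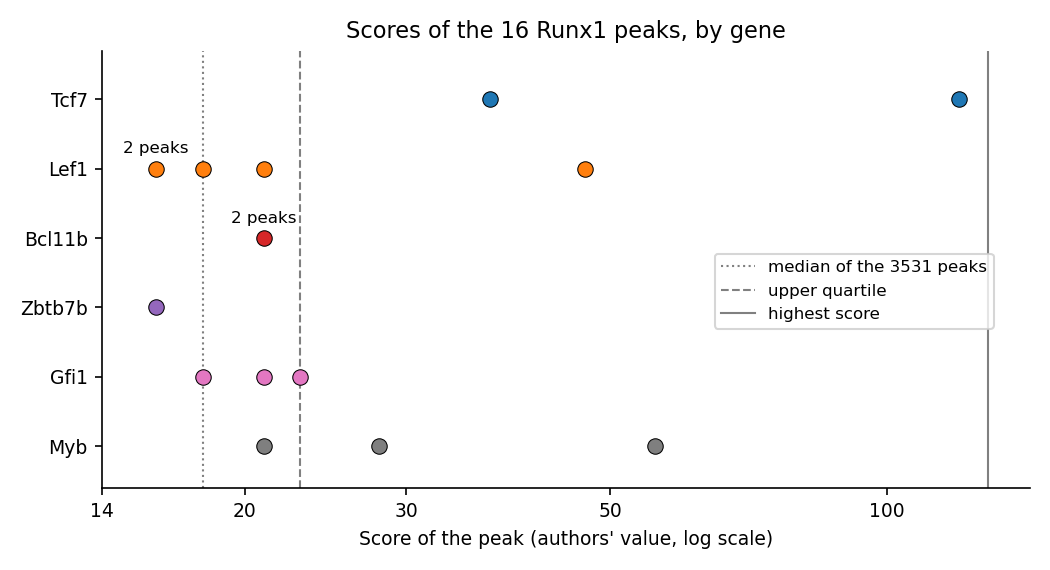
Score of each of the 16 Runx1 peaks (x axis, log scale) by gene, with lines at the median, the upper quartile and the highest score of the 3531 peaks. The 2 peaks of Tcf7 lie above the upper quartile, those of Bcl11b and Zbtb7b lie below it, and those of Lef1, Gfi1 and Myb fall on both sides or on it.

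The RUNX core was present in a minority of these peaks. In 5 of the 16, TGTGGT lay on 1 of the strands at no more than 100 bp from the centre, a share of 31.3% (11.0 to 58.7% by the exact Clopper-Pearson 95% interval, which covers counting error only). The share over all Runx1 peaks, 26.5%, lies inside this wide interval, which decides little. At the positions 1 kb to each side it was found in 18.8% of 32 windows for the factors and in 14.6% for all peaks. With TGCGGT counted as well, 6 of the 16 peaks (37.5%) and 33.6% of all peaks had a site. The 5 peaks with TGTGGT had scores of 21 to 120 with a median of 23, and the 11 without had scores of 16 to 56 with a median of 21. In the whole list the median score was 18 both for the 935 peaks with TGTGGT and for the 2596 without. Each of the 5 peaks of the factors with the core held a single TGTGGT, and 4 of these sites were within 50 bp of the centre. The windows of the 8 genes contained 1860 TGTGGT sites, 0.831 per kb as compared with 0.774 per kb over the chromosomes, and 5 of the 1860 lay within 100 bp of the centre of a peak.

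The first letters of the core, TGTGG, which the strict core contains, were searched after the sequences had been seen. They were present in 15 of the 16 peaks (93.8%, exact interval 69.8 to 99.8%), the Gfi1 peak in intron 6 being the exception. The share was 61.7% over all Runx1 peaks, and 62.5% at the positions 1 kb from the peaks of the factors, where it was 46.5% for all peaks. As the letters were chosen on these sequences, the difference carries no test.

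**Figure D4:**
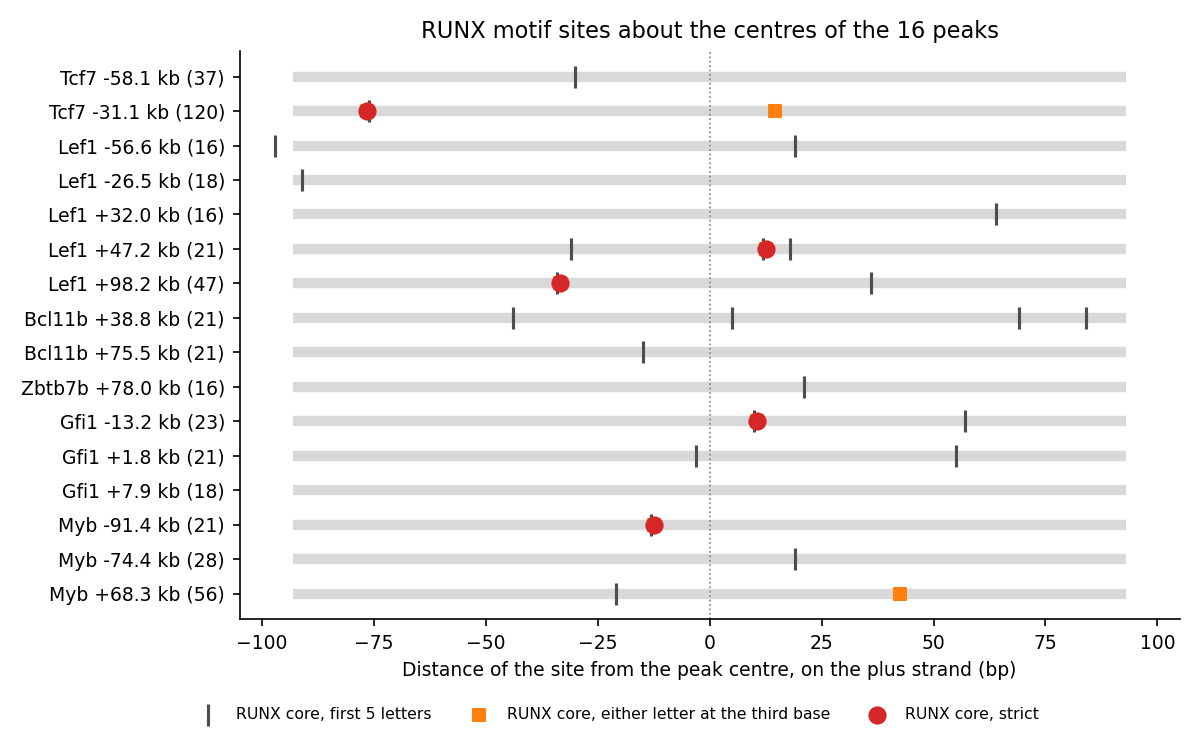
Position of RUNX motif sites relative to the centre of each of the 16 peaks (x axis, bp on the plus strand), with 1 line per peak named by its gene, its distance from the 5′ end of the gene (upstream as negative) and its score, and the peak drawn as a grey bar. Circles mark the strict core TGTGGT, squares the sites added when TGCGGT is allowed, and ticks the short form TGTGG, and the strict core is seen once in 5 of the 16 peaks.

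The 8 factors bind DNA themselves or act with factors that do, and the letters of some of their motifs were counted in the same way, on both strands, within 100 bp of the centre. An E-box (CAGGTG or CAGCTG), the motif of the E proteins that work beside Runx1 in thymocytes, was present within this distance in 10 of the 16 peaks (62.5%, exact interval 35.4 to 84.8%) and in 41.3% of all Runx1 peaks. All 3 Gfi1 peaks and all 3 Myb peaks had one, although that of the Myb peak 91363 bp upstream, at 20972054 to 20972059, lay just outside the ends of the peak and is not in the sequence printed above. At the positions 1 kb to each side, an E-box was also more frequent for the factors, in 37.5% of windows against 24.2% for all peaks. The ETS letters GGAAG were in 8 of the 16 (50%) and in 62.7% of all peaks. The MYB letters AACGG were in 3 of the 16, the strongest Tcf7 peak and the Gfi1 peaks at the promoter and in intron 6, or 18.8% against 13.5%. A GATA site, AGATAA, was in 1 peak, that upstream of Gfi1 (6.25% against 6.34%), and the TCF and LEF letters CTTTGA were in 1, the Myb peak at 74442 bp upstream (6.25% against 14.2%). The GFI letters AATCA were in 3 of the 16 (18.8%) and in 21.5% of all peaks. The interval of each of these shares over the 16 peaks includes the share over all peaks. Those intervals are wide and take the 16 peaks, several of them at the same gene, as independent, so this decides little. Sites of different factors can overlap, as at Tcf7 and Myb above, and a match of letters is not evidence of binding.

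**Figure D5:**
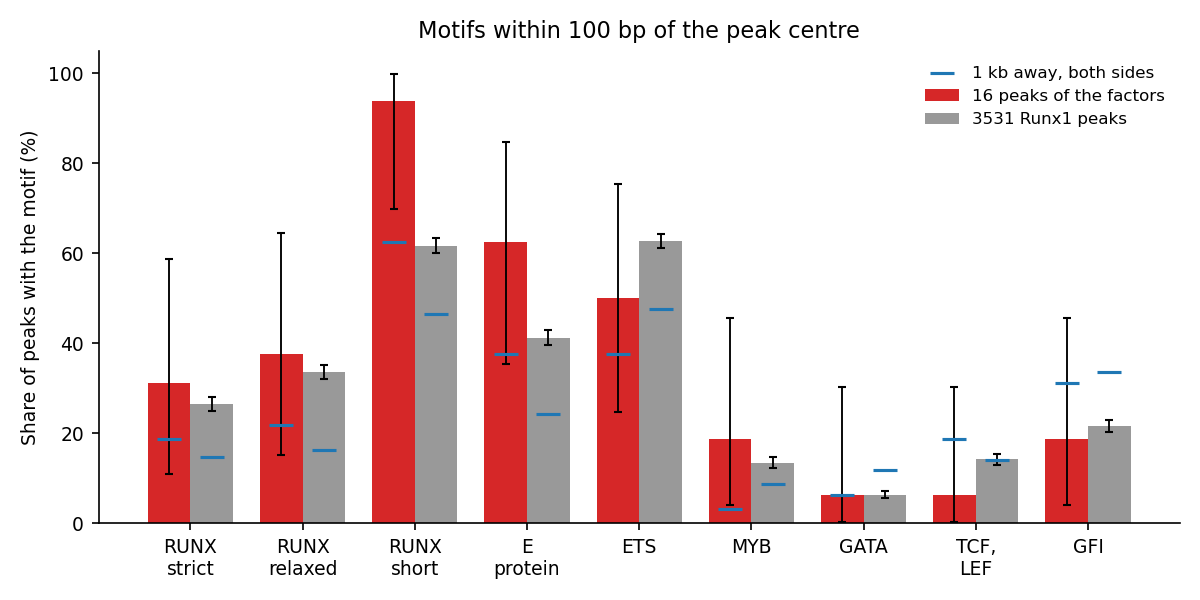
Share of peaks with a motif within 100 bp of the centre (y axis, %), for the 16 peaks of the factors and the 3531 peaks of the list, with exact Clopper-Pearson 95% confidence intervals as error bars and blue dashes for the positions 1 kb to each side. RUNX strict is the core, relaxed also allows its variant, and short takes the first letters of the core. Apart from the short form, chosen after the sequences were seen, the intervals of the 16 peaks, which are wide, include the shares of all peaks.

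The median GC content of the 16 peaks was 55.9% (46.0 to 64.2%) and that of the list 54.0%, and the median number of CpG per peak was 4 in both. The Tcf7 peak with a score of 120 had the most CpG among the 16, with 11. In the promoters themselves, taken as 250 bases before to 50 after the 5′ end of the gene, TGTGGT was present at Gfi1 alone, 1 of 8, and in 15.3% of the promoters of all genes.

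Other regulators of T-lineage commitment and choice, listed with earlier results of these data known, were counted in the same way. Of 21 such genes, 18 (85.7%) had a peak in the window, with a median of 2 peaks, and 11 had a peak within 5 kb of a TSS, as compared with 1 of the 8 factors above. Over all genes these shares were 38.5% and 5.77%. Among them were Notch1, which encodes the receptor that induces the T-cell program, with its targets Hes1 and Dtx1, the E protein gene Tcf12 and the inhibitor gene Id2, Runx1 itself, Satb1, Egr1, Patz1 and Myc. The highest score among the 21 was 49, at a peak 34334 bp downstream of the 5′ end of Id3, another inhibitor of E proteins, which was nearer to E2f2. It was followed by 35 at a peak of Runx1, 24247 bp from its 5′ end, and by 35 at Tcf12, 921 bp from its 5′ end. No peak was found in the windows of Ikzf1, Notch3 and Tcf3, which are named here after their values were seen. Whether the shares of promoters with a peak differ between these 21 genes and the 8 factors was not tested.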

How the data were processed

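The data are 1 Runx1 ChIP-seq library and 1 input library of DP thymocytes. The authors deposited, per library, the peak positions and a score per peak, named in neither file. The processing notes name HOMER and mm9, and the methods of the study describe HOMER at default settings for its comparison of factors at promoters. The aligner is not given in the sources used here. Read depth is unknown, and the threshold of the caller decides which peaks are listed.

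BED positions were converted to 1-based coordinates on NCBIM37 (mm9), whose chromosome lengths hold all the peaks (2 mitochondrial input peaks were not used in densities), and genes were taken from GENCODE vM1 of that build. All annotated transcripts gave the TSSs. The older symbol Sfpi1 was used for Spi1, through a RefSeq table. A gene had a peak if a peak centre (mean of start and end) lay in its body or within 100 kb of either end. Motifs were searched in the 201 bp around the centre. Shares have exact Clopper-Pearson 95% intervals; no test was made. The genes, lists and motifs were chosen with earlier results of these data known. The named genes are the 8 factors, genes at or nearest to their peaks, and of each other list the 3 with the highest score (with ties) and those with a peak within 5 kb of a TSS, of which not all are reported here. The counting was tested on simulated data. Tables of the paper were not used for values. Alternatives were flank, score, input overlap, peak assignment, TSS window and motif. Python 3.11.15, numpy 2.4.6, pandas 2.3.3, scipy 1.17.1, pysam 0.24.0 and matplotlib 3.10.9 were used.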

Additional observations from a re-analysis of the deposited data

How the results depend on the processing

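Over the alternatives run, 44 values stayed within 1.5 times the main value (for the share of peaks with the core, within its interval) and 8 moved. Those that left out peaks overlapping an input peak could not move, since no peak of the factors did so. The interval for the core was wide, 11.0 to 58.7%, so that share could move far and still count as the same. With a flank of 20 kb, 3 of the 8 genes and 8 peaks were counted (15.9% of all genes then had a peak), as the windows were shorter; the genes with a peak were 5 and 7 at 50 and 200 kb, where 25.8% and 55.4% of all genes had one. Only 10 peaks were counted when the nearest protein-coding TSS had to be that of the factor. With the upper quartile of scores, 6 peaks of 4 genes were counted (12.8% of all genes then had one), with a median score of 42, 2.68 peaks per Mb and 0 genes with a peak within 5 kb of a TSS, as fewer peaks were counted. The list then held 1023 peaks, so the 2.68 per Mb does not compare with the 1.33 per Mb of the whole list over the chromosomes. The share of peaks with a RUNX core rose to 93.8% with the letters TGTGG, chosen after seeing the data, as were the counts without Tcf7 or Lef1; with the other motif settings it ran from 25 to 43.8%. No replicate could be left out, since there is 1 library of each kind. No paired analysis was possible because there are no replicates to pair. Without read counts, it is unknown what depth limits at genes with no peak.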

Other observations

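Genes of the progenitor and alternative-lineage programs, which are switched off or kept low as thymocytes commit, and the paralogs of the 8 factors were described in the same way. Of 16 progenitor and alternative-lineage genes, 7 had a Runx1 peak in the window of 100 kb around the body, with a median of 0 peaks, and 0 had one within 5 kb of a TSS; 43.8% with a peak compares with 38.5% of all genes. The highest scores were 37 at a peak 78150 bp upstream of Mef2c, a regulator of lymphoid and myeloid progenitors, 23 at a peak 97175 bp upstream of Ebf1, a B-lineage factor, that was nearer to Rnf145, and 18 at peaks of Gata2 and Spi1. The peak of Gata2 lay 5050 bp upstream of its 5′ end and held TGTGGT. Spi1 encodes PU.1, which opposes commitment, and its peak with that score was 39719 bp upstream and nearer to Rapsn.

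Of the 16 paralogs of the 8 factors, 7 had a peak in the window, again with a median of 0 peaks, and Zbtb7a, a relative of Zbtb7b, was the 1 gene with a peak within 5 kb of a TSS. Over all genes, 38.5% had a peak in the window and 5.77% had one within 5 kb of a TSS. The highest score was 26, at a peak 19113 bp upstream of Gfi1b that was nearer to Tsc1, followed by 18 at Gata2 and at Tcf7l2. Gata1, Gata2 and Bcl11a are in both lists. Whether the shares differ from those of the 8 factors was not tested.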
